A study of Mus musculus with 16 samples.

Results

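Ribosome biogenesis factors are the proteins that transcribe, modify, cut and assemble ribosomal RNA, and this account follows 48 of them by name through a time course of PU.1 restoration in a mouse leukaemia line. They are a list of names grouped by function, not by a threshold on measured values. Entrez numbers were matched to gene symbols, and all 48 were held by the count files, out of 13652 genes in all. By role, 6 act with RNA polymerase I on ribosomal DNA (Polr1a, Polr1b, Polr1c, Polr1e, Tcof1, Mybbp1a) and 8 belong to the small nucleolar ribonucleoproteins, or snoRNPs (Nop56, Nop58, Fbl, Nolc1, Dkc1, Nhp2, Gar1, Nop10). The small subunit takes 17 (Rcl1, Rrp9, Rrp12, Wdr43, Wdr75, Nop14, Utp15, Utp20, Heatr1, Ddx10, Tsr1, Ltv1, Bysl, Noc4l, Imp4, Mphosph10, Nob1) and the large subunit 13 (Rrs1, Bop1, Pes1, Wdr12, Nop2, Nop16, Ddx18, Noc2l, Noc3l, Ebna1bp2, Nip7, Gtpbp4, Ftsj3). The remaining 4 are general nucleolar proteins (Ncl, Npm1, Ddx21, Gnl3).

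In the nucleolus, RNA polymerase I copies ribosomal DNA into a long precursor, on which a large processome assembles while it is still being made. Guide snoRNPs methylate the precursor or convert uridines to pseudouridine, nucleases release the mature ribosomal RNAs, and helicases and GTPases help the small and large subunits to fold and leave the nucleus. The pathway takes up much of the synthetic capacity of a dividing cell, and Myc is a well known activator of many of its genes.

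RNA was sequenced from AML246, a line of mouse acute myeloid leukaemia kept in interleukin-3 medium, which gave 16 libraries in 8 groups of 2. The groups were untreated cells at day 0, cells given doxycycline at 0.1 µg/mL for 4, 8 and 12 days, the Cd11b-high fraction sorted at day 12, and cells at 4, 8 and 12 days off doxycycline, which was removed on day 12 (course days 16, 20 and 24). The series title ties doxycycline to restoration of PU.1, the myeloid transcription factor that Spi1 encodes, and withdrawal to its knockdown, and the sources used here do not describe the construct. All groups come from 1 cell line, day 0 is the only untreated group, every group but the Cd11b-high sort holds all viable cells, and nothing in the labels tells whether A and B of a group came from separate cultures. The p-values therefore measure only the spread between these samples, which may be technical.

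Library totals ran from 12962801 to 26509803 counts. Levels are in CPM, counts divided by library sizes that were scaled by TMM, an error is 1 SD over n = 2 libraries, and a gene was called higher or lower at a Benjamini-Hochberg adjusted p under 0.05 in edgeR's quasi-likelihood test over all 13652 genes. All 8 myeloid identity markers were held by the files and summed to 3170.0 to 3308 CPM at day 12 and 1800.0 to 1916 CPM at day 0. Of these 8, 5 were called higher and 1 lower at day 12 than at day 0 (30.0% and 33.4% of all genes). Their log2 folds ran from -4.31 to 8.78. Spi1 had 61.5 ± 6.69 CPM at day 0, 222 ± 4.72 CPM at day 12 and 46.0 ± 12.5 CPM at 12 days off. The B cell and the T and NK cell lists each had 1 marker in the files and summed to at most 1.02 and 27.9 CPM in any library. Mitochondrially encoded genes took 2.01% to 3.59% of counts in the other groups, against 7.36% and 6.35% at day 0. The libraries of 12 days off stood furthest apart. Their chi-square per gene between A and B was 73.5, against 2.97 to 18.9 in the other groups. The difference between A and B there followed gene length (Spearman -0.618 over all genes). In the other groups this correlation ran from -0.359 (day 4) to 0.0693 (day 12 total cells). The members differed between the libraries of 12 days off by a median of 0.242 on the log2 scale, with Nhp2 furthest apart at 0.734.

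The promoters of some members carry the letters CACGTG, the E-box that Myc and its partner Max bind in the literature. In RefSeq promoters of build GRCm38.p6, from 250 bases before to 50 after an annotated start, 42 of the 48 members had an entry and 8 of those (19.0%) held CACGTG, a motif that reads the same on either strand. The share was 11.6% over 10257 genes of the count files with an entry and 8.09% over all 27025 genes of the table. Upstream runs of 150 bases are shown for Nop2 and Imp4, which hold the motif, and for Polr1b and Gnl3, which had the deepest falls at day 4 and have no CACGTG in the window. They read 5′ to 3′ on the strand of the gene, end at the base before the start that the promoter table uses, and have the motif in capitals. For Polr1b that start lies past the gene start given below for the gene as a whole.
Nop2 (chr6:125131733-125131882, plus strand): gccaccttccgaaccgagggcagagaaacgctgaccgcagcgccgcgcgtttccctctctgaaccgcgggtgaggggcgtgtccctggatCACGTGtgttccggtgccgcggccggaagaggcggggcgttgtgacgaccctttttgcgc
Imp4 (chr1:34439679-34439828, plus strand): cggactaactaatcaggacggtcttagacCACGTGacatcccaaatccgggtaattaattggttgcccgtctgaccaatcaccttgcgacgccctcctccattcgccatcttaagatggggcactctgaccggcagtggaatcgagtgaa
Polr1b (chr2:129100846-129100995, plus strand): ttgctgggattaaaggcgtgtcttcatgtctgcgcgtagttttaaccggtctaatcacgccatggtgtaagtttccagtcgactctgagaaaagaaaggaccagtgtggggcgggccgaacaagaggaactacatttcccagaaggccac
Gnl3 (chr14:31019132-31019281, minus strand): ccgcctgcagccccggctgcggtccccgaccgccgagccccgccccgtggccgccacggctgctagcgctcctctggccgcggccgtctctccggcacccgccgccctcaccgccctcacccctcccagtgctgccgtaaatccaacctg
The motif begins 60 bases before the start in Nop2 and 121 before it in Imp4. In the other 6 members it lay past the start, in windows of 30 bases of which 3 are shown, since these members span the range of behaviour: Mybbp1a and Wdr43 fell and Ltv1 was not called at day 4.
Mybbp1a (chr11:72441347-72441376, plus strand): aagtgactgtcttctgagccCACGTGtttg
Wdr43 (chr17:71616220-71616249, plus strand): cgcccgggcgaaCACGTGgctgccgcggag
Ltv1 (chr10:13193092-13193121, minus strand): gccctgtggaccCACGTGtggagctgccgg
At day 4 against day 0, the log2 folds of the 8 were -1.65 for Nop2, -1.44 for Mybbp1a, -1.35 for Wdr43, -0.99 for Tsr1, -0.65 for Utp20, -0.58 for Imp4, -0.58 for Pes1 and 0.02 for Ltv1. Polr1b and Gnl3, with no match in the window and picked for the deepest falls, had -2.38 and -2.40. The median over all 48 members was -1.08. Members with and without the motif were not compared as sets.

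The first 4 days of doxycycline were the low point of the pathway. Of the 48 members, 43 were called lower and 0 higher at day 4 than at day 0, where 31.0% of all genes were called lower and 28.2% higher. The median log2 fold of the members was -1.08, against -0.05 over all genes, and the median member stood at 47.2% of its day 0 level. The deepest falls were those of Gnl3 (log2 fold -2.40), a nucleolar GTPase of proliferating cells, Polr1b (-2.38), the second largest subunit of RNA polymerase I, Noc4l (-1.97), a small subunit factor, and Rrs1 (-1.87), a large subunit factor. The 5 members not called were Bysl, Ddx21, Ltv1, Ncl and Tcof1. Among the 7 groups of total cells, 46 of the 48 had their lowest mean at day 4, the others being Ltv1 (day 0) and Polr1c (day 12). In bulk RNA, fewer cells of a type and less RNA per cell cannot be told apart.

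**Figure D1:**
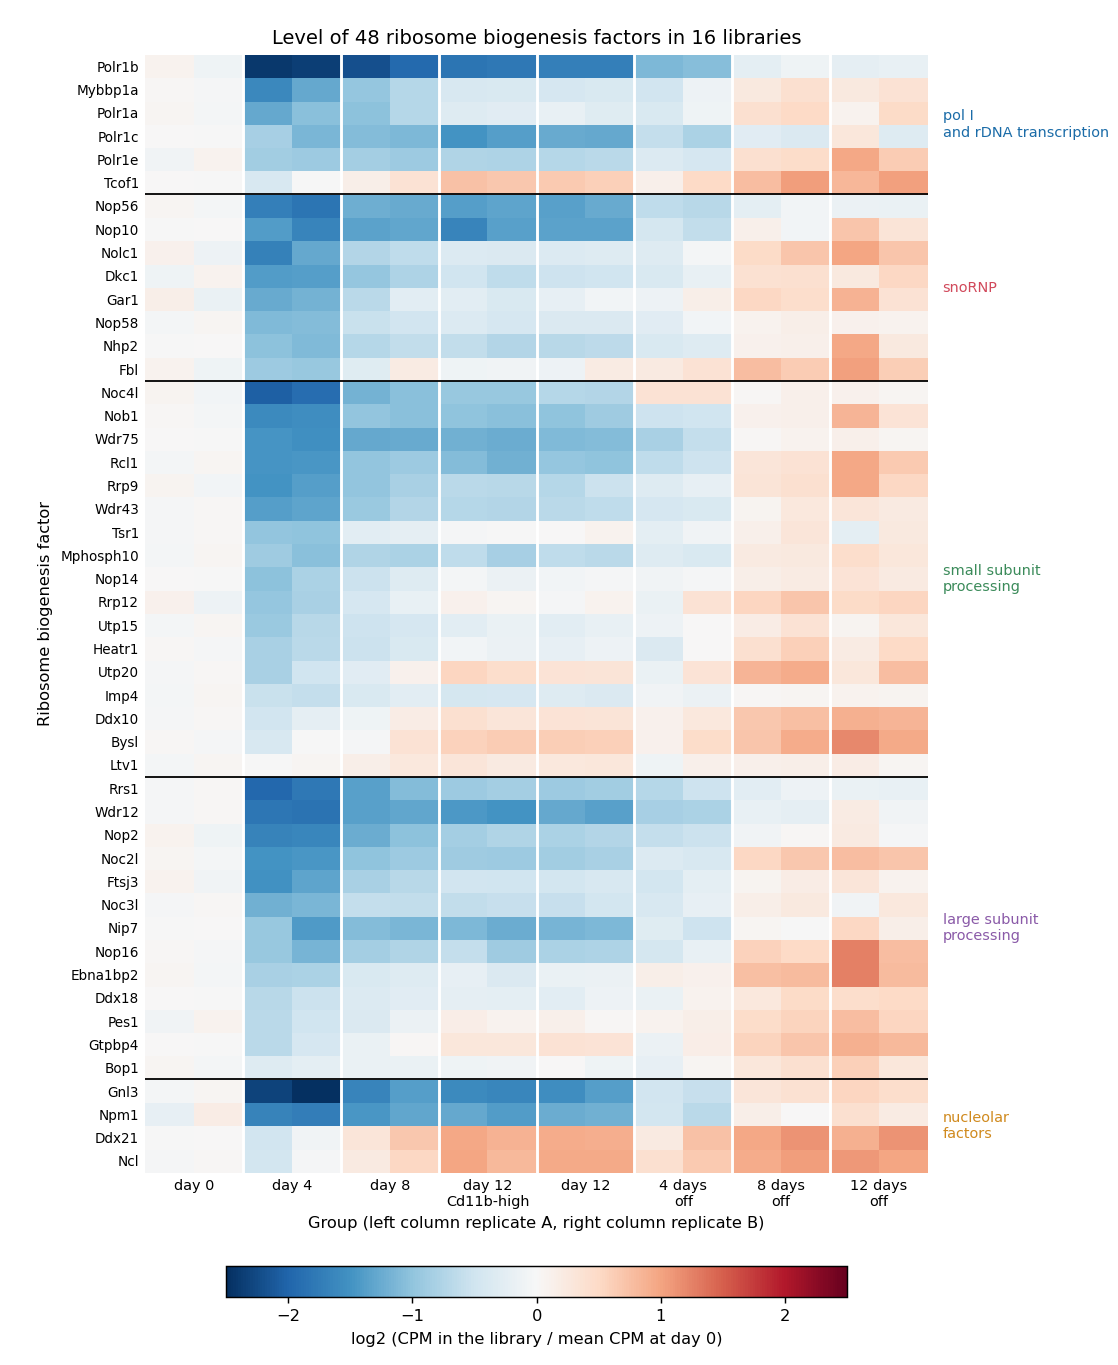
Level of each of the 48 factors in each of the 16 libraries as log2 of its CPM over its mean CPM at day 0, by role and, within a role, from the deepest to the shallowest change at day 4. Blue fills nearly all of the day 4 columns, with Gnl3 at a log2 fold of -2.40 and Ltv1 at 0.02, and red fills most of the 8 and 12 days off columns.

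From day 4 on, most members rose while doxycycline was still present. At day 12 against day 4, 39 of 48 were higher and 0 lower (14.7% of all genes higher, 12.3% lower), with a median log2 fold of 0.68. The all-gene split depends on the scaling, with 2006 genes higher and 1681 lower under TMM and 1272 higher and 2797 lower under library size alone, which still left 36 members higher and 0 lower. At day 8 against day 0, 2 members (Ncl and Ddx21) were higher and 35 lower (27.0% and 30.2% of all genes), with a median log2 fold of -0.71. Both of the higher calls at day 8 were lost without day 0 replicate A, without day 0 replicate B or without day 8 replicate B. At day 12 against day 0, 7 were higher and 27 lower (30.0% and 33.4% of all genes), and the median log2 fold had come up to -0.41 against -0.07 over all genes. The median member stood at 61.0% of its day 0 level at day 8 and at 75.1% at day 12.

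The members fell into 4 sets by their calls at day 4 and day 12 against day 0. Of the 43 that were lower at day 4, 27 were still lower at day 12 and 14 were no longer called (Bop1, Ddx18, Ebna1bp2, Fbl, Gar1, Heatr1, Nolc1, Nop14, Pes1, Polr1a, Rrp12, Tsr1, Utp15 and Utp20). Another 2, Ddx10 and Gtpbp4, were higher at day 12. Of all genes, 31.0% were lower at day 4, and 33.4% lower and 30.0% higher at day 12, than at day 0. The share of all genes with both calls is not given here. A move from called to not called was not tested as a difference. Of the 14, library size alone called Ddx18, Ebna1bp2, Nolc1, Polr1a and Utp15. Removal of the length trend called Fbl, Heatr1, Nolc1, Polr1a and Utp15. The 7 higher at day 12 were Ncl (log2 fold 0.95), Ddx21 (0.91), Tcof1 (0.63), Bysl (0.60), Gtpbp4 (0.35), Ddx10 (0.33) and Ltv1 (0.27). This count was 4 without day 0 replicate A or without either day 12 library, and 4 with library size alone, which lost Ddx10, Gtpbp4 and Ltv1 each time. At the other end, Polr1b (-1.71), Gnl3 (-1.47) and Nop10 (-1.33) had the deepest falls at day 12.

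**Figure D2:**
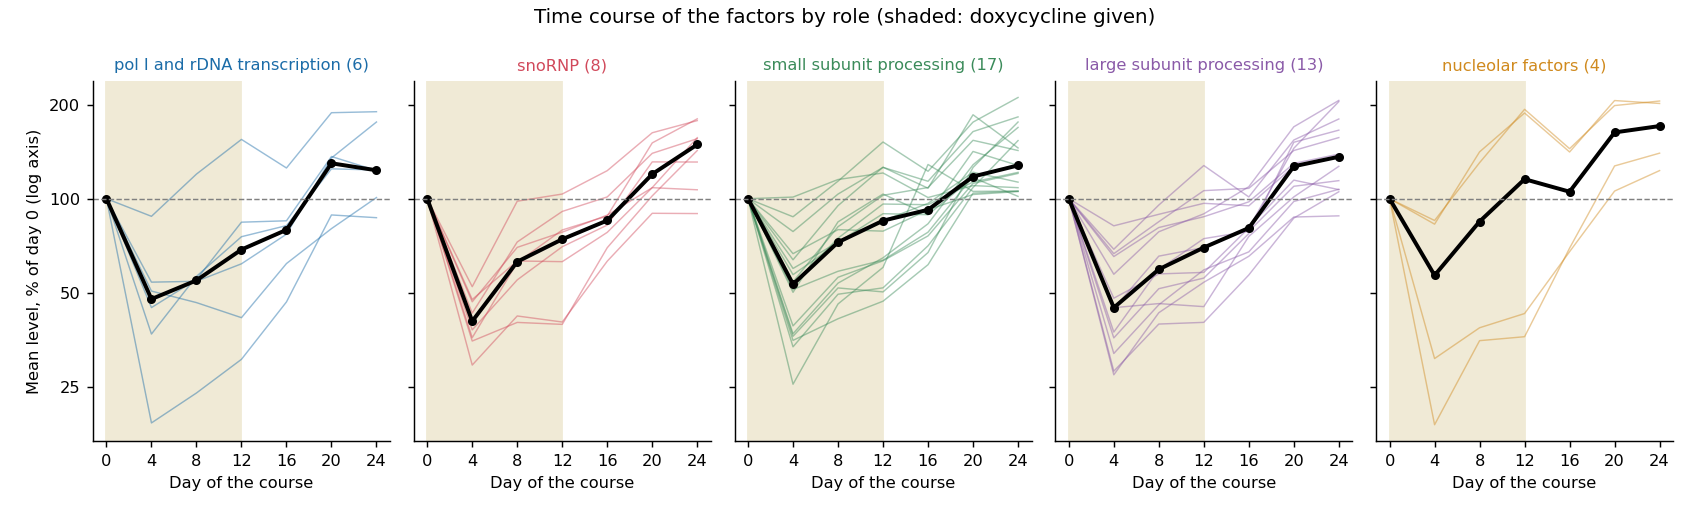
Mean level of each factor (thin lines) and the median of its role (black) in percent of day 0 on a log axis against the day of the course, 1 panel per role, shading marking doxycycline; Cd11b-high cells are left out. All 5 medians have their low point at day 4 and end above 100% at day 24.

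Of the 6 RNA polymerase I and ribosomal DNA factors, 5 were lower at day 4 than at day 0 (31.0% of all genes). At day 12, 4 were lower and 1 higher than at day 0 (33.4% and 30.0% of all genes). At 12 days off, 5 were higher than at day 12 and 2 higher than at day 0 (32.9% and 21.6% of all genes). The role classes were not tested against these shares. Polr1b (Entrez 20017, chromosome 2, 129100970 to 129128060, GRCm38.p6 as for all positions here) encodes the second largest subunit, which shapes the catalytic centre. Polr1b had 102 and 88.4 CPM at day 0, 17.9 and 18.6 CPM at day 4 and 20.7 and 24.7 CPM at day 8. At day 12, Polr1b had 26.7 and 27.7 CPM in Cd11b-high cells and 29.3 and 29.0 CPM in total cells. After withdrawal, Polr1b had 43.6 and 45.3 CPM at 4 days, 80.4 and 88.4 CPM at 8 days and 81.8 and 83.6 CPM at 12 days. No library on doxycycline came near the lower day 0 library, and by 8 days off the levels stood near the lower day 0 value. For Polr1b the log2 fold against day 0 was -2.38 (SE 0.11, edgeR adjusted p = 4.7e-10) at day 4 and -1.71 (SE 0.11, edgeR adjusted p = 9.2e-09) at day 12. Polr1b at 12 days off had a log2 fold of 1.50 (SE 0.11, edgeR adjusted p = 2.5e-08) against day 12 and of -0.20 (SE 0.11, edgeR adjusted p = 0.13) against day 0.

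Polr1c (Entrez 20016, chromosome 17, 46243920 to 46248045) encodes a subunit shared by RNA polymerases I and III. Polr1c had 64.0 and 63.0 CPM at day 0, 35.7 and 28.6 CPM at day 4 and 30.1 and 29.0 CPM at day 8. At day 12, Polr1c had 22.6 and 24.5 CPM in Cd11b-high cells and 26.6 and 26.3 CPM in total cells. After withdrawal, Polr1c had 42.1 and 36.6 CPM at 4 days, 52.3 and 49.6 CPM at 8 days and 77.6 and 50.5 CPM at 12 days. Its lowest mean came at day 12 and not at day 4, and the libraries on doxycycline lay below those of day 0 throughout. For Polr1c the log2 fold against day 0 was -0.98 (SE 0.16, edgeR adjusted p = 0.00011) at day 4 and -1.26 (SE 0.16, edgeR adjusted p = 9.6e-06) at day 12. Polr1c at 12 days off had a log2 fold of 1.27 (SE 0.16, edgeR adjusted p = 8e-06) against day 12 and of 0.01 (SE 0.16, edgeR adjusted p = 0.96) against day 0. The last of these depends on the library, since it was -0.33 (edgeR adjusted p = 0.035) without 12 days off replicate A and 0.37 (edgeR adjusted p = 0.012) without replicate B. Polr1e (Entrez 64424, chromosome 4, 45018609 to 45034279) encodes a subunit of the polymerase I specific heterodimer. Polr1e had 32.6 and 36.7 CPM at day 0, 18.9 and 18.5 CPM at day 4 and 19.2 and 18.5 CPM at day 8. At day 12, Polr1e had 20.6 and 20.3 CPM in Cd11b-high cells and 21.2 and 21.7 CPM in total cells. After withdrawal, Polr1e had 27.5 and 25.8 CPM at 4 days, 45.8 and 47.7 CPM at 8 days and 68.1 and 53.7 CPM at 12 days. Its levels on doxycycline stayed between 18.5 and 21.7 CPM, and both libraries of 8 and of 12 days off exceeded both of day 0. For Polr1e the log2 fold against day 0 was -0.88 (SE 0.12, edgeR adjusted p = 1.8e-05) at day 4 and -0.69 (SE 0.12, edgeR adjusted p = 0.00015) at day 12. Polr1e at 12 days off had a log2 fold of 1.51 (SE 0.12, edgeR adjusted p = 6.3e-08) against day 12 and of 0.82 (SE 0.12, edgeR adjusted p = 7e-05) against day 0.

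Tcof1 (Entrez 21453, chromosome 18, 60813738 to 60848983) encodes treacle, a nucleolar partner of polymerase I whose loss causes Treacher Collins syndrome in humans. Tcof1 had 64.4 and 63.1 CPM at day 0, 48.6 and 63.4 CPM at day 4 and 70.7 and 82.1 CPM at day 8. At day 12, Tcof1 had 106 and 101 CPM in Cd11b-high cells and 101 and 96.4 CPM in total cells. After withdrawal, Tcof1 had 69.6 and 90.3 CPM at 4 days, 109 and 132 CPM at 8 days and 113 and 129 CPM at 12 days. Day 4 replicate A lay below day 0 and replicate B within its range, and all day 8 and day 12 libraries lay above it. For Tcof1 the log2 fold against day 0 was -0.19 (SE 0.15, edgeR adjusted p = 0.3) at day 4 and 0.63 (SE 0.15, edgeR adjusted p = 0.0019) at day 12. Tcof1 at 12 days off had a log2 fold of 0.29 (SE 0.15, edgeR adjusted p = 0.091) against day 12 and of 0.92 (SE 0.15, edgeR adjusted p = 0.00019) against day 0. The difference from day 12 was called without 12 days off replicate A (log2 fold 0.39, edgeR adjusted p = 0.039). Polr1a (Entrez 20019, chromosome 6, 71909053 to 71979435) encodes the largest, catalytic subunit. Polr1a had 101 and 94.8 CPM at day 0, 40.1 and 47.5 CPM at day 4 and 48.0 and 59.8 CPM at day 8. At day 12, Polr1a had 77.9 and 80.2 CPM in Cd11b-high cells and 85.5 and 78.8 CPM in total cells. After withdrawal, Polr1a had 75.4 and 90.6 CPM at 4 days, 128 and 138 CPM at 8 days and 104 and 136 CPM at 12 days. It was low at days 4 and 8, and at day 12 it was higher than at day 8 but still below both day 0 libraries. For Polr1a the log2 fold against day 0 was -1.16 (SE 0.15, edgeR adjusted p = 7.7e-06) at day 4 and -0.25 (SE 0.14, edgeR adjusted p = 0.14) at day 12. Polr1a at 12 days off had a log2 fold of 0.55 (SE 0.14, edgeR adjusted p = 0.0034) against day 12 and of 0.30 (SE 0.14, edgeR adjusted p = 0.1) against day 0. Without 12 days off replicate A, the last value was 0.48 (edgeR adjusted p = 0.0069). The day 12 value was called in a fit of the 4 libraries alone (log2 fold -0.20, edgeR adjusted p = 0.033), with library size alone (log2 fold -0.39, edgeR adjusted p = 0.026) and with the length trend removed (log2 fold -0.54, edgeR adjusted p = 0.00011). Mybbp1a, a nucleolar Myb binding protein that associates with the polymerase, had a log2 fold of -1.44 (SE 0.14, edgeR adjusted p = 5.8e-07) at day 4 and of -0.40 (SE 0.14, edgeR adjusted p = 0.018) at day 12 against day 0, and the second call was lost when day 0 replicate A or either day 12 library was left out.

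All 8 snoRNP proteins were lower at day 4 than at day 0 (31.0% of all genes). At day 12, 5 of 8 were lower than at day 0 (33.4% of all genes). At 12 days off, all 8 were higher than at day 12 and 6 higher than at day 0 (32.9% and 21.6% of all genes). Box C/D particles methylate ribosomal RNA, with Fbl as the methyltransferase and Nop56 and Nop58 as the scaffold, and box H/ACA particles make pseudouridine, with Dkc1 as the enzyme and Nhp2, Gar1 and Nop10 around it. Nop56 (Entrez 67134, chromosome 2, 130274367 to 130279313) is taken first. Nop56 had 231 and 215 CPM at day 0, 67.7 and 63.2 CPM at day 4 and 95.3 and 92.5 CPM at day 8. At day 12, Nop56 had 85.3 and 89.0 CPM in Cd11b-high cells and 87.1 and 92.6 CPM in total cells. After withdrawal, Nop56 had 144 and 137 CPM at 4 days, 189 and 211 CPM at 8 days and 200.1 and 199 CPM at 12 days. Every library on doxycycline was below 215 CPM, the lower of day 0, and those of 12 days off were also below it. For Nop56 the log2 fold against day 0 was -1.77 (SE 0.10, edgeR adjusted p = 1.9e-09) at day 4 and -1.31 (SE 0.10, edgeR adjusted p = 3.8e-08) at day 12. Nop56 at 12 days off had a log2 fold of 1.15 (SE 0.10, edgeR adjusted p = 1.1e-07) against day 12 and of -0.16 (SE 0.10, edgeR adjusted p = 0.19) against day 0. Nop58 recovered more, with log2 folds of -1.09 at day 4 and -0.36 at day 12 against day 0. Fbl (Entrez 14113, chromosome 7, 28168893 to 28179269) was among the lower genes in CPM. Fbl had 20.9 and 18.2 CPM at day 0, 10.4 and 10.1 CPM at day 4 and 15.7 and 22.6 CPM at day 8. At day 12, Fbl had 18.2 and 18.4 CPM in Cd11b-high cells and 18.0 and 22.5 CPM in total cells. After withdrawal, Fbl had 22.8 and 25.3 CPM at 4 days, 33.3 and 30.3 CPM at 8 days and 39.6 and 29.9 CPM at 12 days. The day 4 libraries lay below day 0, those of days 8 and 12 overlapped with it, and all 6 after withdrawal lay above it. For Fbl the log2 fold against day 0 was -0.94 (SE 0.18, edgeR adjusted p = 0.00041) at day 4 and 0.05 (SE 0.18, edgeR adjusted p = 0.82) at day 12. Fbl at 12 days off had a log2 fold of 0.78 (SE 0.17, edgeR adjusted p = 0.001) against day 12 and of 0.83 (SE 0.17, edgeR adjusted p = 0.0015) against day 0. With the length trend removed, Fbl had 0.34 (edgeR adjusted p = 0.051) at 12 days off against day 12, a lost call, and 0.40 (edgeR adjusted p = 0.031) at day 12 against day 0, a gained one.

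Among the H/ACA proteins, Nop10 (Entrez 66181, chromosome 2, 112261926 to 112262898), a small protein of the core, stayed low as long as doxycycline was present. Nop10 had 64.3 and 66.0 CPM at day 0, 24.8 and 20.9 CPM at day 4 and 25.9 and 26.5 CPM at day 8. At day 12, Nop10 had 20.7 and 25.4 CPM in Cd11b-high cells and 25.8 and 25.9 CPM in total cells. After withdrawal, Nop10 had 48.2 and 42.7 CPM at 4 days, 71.0 and 62.1 CPM at 8 days and 105 and 81.1 CPM at 12 days. The groups on doxycycline did not overlap with day 0, and both libraries of 12 days off lay above it. For Nop10 the log2 fold against day 0 was -1.51 (SE 0.14, edgeR adjusted p = 4.3e-07) at day 4 and -1.33 (SE 0.14, edgeR adjusted p = 1.4e-06) at day 12. Nop10 at 12 days off had a log2 fold of 1.85 (SE 0.14, edgeR adjusted p = 4.6e-08) against day 12 and of 0.51 (SE 0.14, edgeR adjusted p = 0.0073) against day 0. Without day 0 replicate A, the last of these was 0.49 (edgeR adjusted p = 0.053), and in a fit of the 4 libraries alone it was 0.52 (edgeR adjusted p = 0.11). Dkc1, Nhp2 and Gar1 had log2 folds of -1.39, -1.07 and -1.22 at day 4 and of -0.51, -0.67 and -0.14 at day 12 against day 0, all called but the last. Nolc1 (Entrez 70769, chromosome 19, 46075847 to 46085543) encodes a chaperone that ferries snoRNPs between Cajal bodies and the nucleolus. Nolc1 had 178 and 151 CPM at day 0, 50.7 and 67.4 CPM at day 4 and 99.0 and 106 CPM at day 8. At day 12, Nolc1 had 130.4 and 128 CPM in Cd11b-high cells and 130.1 and 131 CPM in total cells. After withdrawal, Nolc1 had 131 and 158 CPM at 4 days, 229.7 and 266 CPM at 8 days and 325 and 267 CPM at 12 days. It was lowest at day 4, intermediate at days 8 and 12, and above both day 0 libraries at 8 and 12 days off. For Nolc1 the log2 fold against day 0 was -1.48 (SE 0.15, edgeR adjusted p = 9.1e-07) at day 4 and -0.33 (SE 0.15, edgeR adjusted p = 0.059) at day 12. Nolc1 at 12 days off had a log2 fold of 1.18 (SE 0.15, edgeR adjusted p = 6.3e-06) against day 12 and of 0.85 (SE 0.15, edgeR adjusted p = 0.00033) against day 0. The day 12 difference was called without day 0 replicate B (log2 fold -0.45, edgeR adjusted p = 0.045), and also in a fit of the 4 libraries alone, with library size alone and with the length trend removed.

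Of 17 small subunit factors, 15 were lower at day 4 than at day 0 (31.0% of all genes). At day 12, 8 were lower and 3 higher than at day 0 (33.4% and 30.0% of all genes). At 12 days off, 14 were higher than at day 12 and 11 higher than at day 0 (32.9% and 21.6% of all genes). The log2 folds of these 17 factors at day 4 spanned a wide range among early and late factors alike. The transcription linked UTP proteins Wdr75, Wdr43, Utp15 and Heatr1 had day 4 log2 folds of -1.50, -1.35, -0.81 and -0.74, and the U3 snoRNP proteins Rrp9, Mphosph10 and Imp4 had -1.44, -0.96 and -0.58. Noc4l and its partner Nop14 had -1.97 and -0.91, and Utp20, a very large scaffold protein, had -0.65. Of the late factors, Nob1, the nuclease that makes the 3′ end of 18S ribosomal RNA, had -1.57 and Tsr1, which blocks early joining of translation factors, had -0.99. Bysl, another pre-40S protein, had -0.19 and Ltv1, also of the late pre-40S particle, had 0.02, and neither was called.

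Wdr75 (Entrez 73674, chromosome 1, 45795153 to 45823638) had the lowest adjusted p of the class at day 12. Wdr75 had 103 and 102 CPM at day 0, 37.0 and 35.1 CPM at day 4 and 42.1 and 42.5 CPM at day 8. At day 12, Wdr75 had 44.6 and 43.2 CPM in Cd11b-high cells and 47.9 and 48.3 CPM in total cells. After withdrawal, Wdr75 had 58.0 and 67.9 CPM at 4 days, 105 and 108 CPM at 8 days and 111 and 105 CPM at 12 days. No library on doxycycline exceeded 48.3 CPM, and those of 8 and 12 days off lay just above day 0. For Wdr75 the log2 fold against day 0 was -1.50 (SE 0.10, edgeR adjusted p = 9.4e-09) at day 4 and -1.09 (SE 0.10, edgeR adjusted p = 2.2e-07) at day 12. Wdr75 at 12 days off had a log2 fold of 1.17 (SE 0.10, edgeR adjusted p = 9.5e-08) against day 12 and of 0.08 (SE 0.09, edgeR adjusted p = 0.52) against day 0. Rcl1 (Entrez 59028, chromosome 19, 29101375 to 29143851), a processome protein needed for early cuts in the precursor, was low on doxycycline and high after it. Rcl1 had 69.2 and 73.6 CPM at day 0, 25.8 and 26.1 CPM at day 4 and 36.1 and 37.9 CPM at day 8. At day 12, Rcl1 had 33.8 and 31.0 CPM in Cd11b-high cells and 36.3 and 35.6 CPM in total cells. After withdrawal, Rcl1 had 46.3 and 49.8 CPM at 4 days, 87.6 and 92.2 CPM at 8 days and 139 and 112 CPM at 12 days. Both libraries of 12 days off exceeded all others. For Rcl1 the log2 fold against day 0 was -1.46 (SE 0.11, edgeR adjusted p = 5.5e-08) at day 4 and -0.99 (SE 0.11, edgeR adjusted p = 2.2e-06) at day 12. Rcl1 at 12 days off had a log2 fold of 1.80 (SE 0.11, edgeR adjusted p = 4.9e-09) against day 12 and of 0.82 (SE 0.11, edgeR adjusted p = 3.3e-05) against day 0. Ddx10 (Entrez 77591, chromosome 9, 53098454 to 53248170), an RNA helicase, followed another course. Ddx10 had 53.6 and 56.3 CPM at day 0, 39.2 and 47.0 CPM at day 4 and 51.0 and 62.7 CPM at day 8. At day 12, Ddx10 had 72.5 and 68.0 CPM in Cd11b-high cells and 69.5 and 68.9 CPM in total cells. After withdrawal, Ddx10 had 59.0 and 65.9 CPM at 4 days, 88.2 and 91.9 CPM at 8 days and 101 and 99.4 CPM at 12 days. It was mildly low at day 4, above day 0 at day 12 and highest at the end. For Ddx10 the log2 fold against day 0 was -0.35 (SE 0.12, edgeR adjusted p = 0.019) at day 4 and 0.33 (SE 0.12, edgeR adjusted p = 0.021) at day 12. Ddx10 at 12 days off had a log2 fold of 0.54 (SE 0.12, edgeR adjusted p = 0.00084) against day 12 and of 0.87 (SE 0.12, edgeR adjusted p = 3.8e-05) against day 0. The day 4 call was lost without day 0 replicate B (edgeR adjusted p = 0.088) or day 4 replicate A (edgeR adjusted p = 0.34). The day 12 call was lost without day 0 replicate A (edgeR adjusted p = 0.1) or without day 12 replicate A (0.082 as edgeR adjusted p) or B (0.072 as edgeR adjusted p).

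Rrp12 (Entrez 107094, chromosome 19, 41859483 to 41896153), whose yeast counterpart helps subunits leave the nucleus, had the highest adjusted p of the class at day 12. Rrp12 had 39.8 and 34.0 CPM at day 0, 18.9 and 21.2 CPM at day 4 and 27.7 and 32.4 CPM at day 8. At day 12, Rrp12 had 40.0 and 38.0 CPM in Cd11b-high cells and 36.3 and 39.4 CPM in total cells. After withdrawal, Rrp12 had 33.0 and 47.2 CPM at 4 days, 53.9 and 59.7 CPM at 8 days and 51.6 and 53.8 CPM at 12 days. It was low at day 4 and overlapped with day 0 at day 12. For Rrp12 the log2 fold against day 0 was -0.88 (SE 0.15, edgeR adjusted p = 0.00016) at day 4 and 0.03 (SE 0.15, edgeR adjusted p = 0.85) at day 12. Rrp12 at 12 days off had a log2 fold of 0.48 (SE 0.15, edgeR adjusted p = 0.011) against day 12 and of 0.51 (SE 0.15, edgeR adjusted p = 0.012) against day 0. The call against day 12 was lost without day 12 replicate A (log2 fold 0.42, edgeR adjusted p = 0.079) and that against day 0 without day 0 replicate B (log2 fold 0.40, edgeR adjusted p = 0.11) or in a fit of the 4 libraries alone (log2 fold 0.51, edgeR adjusted p = 0.11). Noc4l had 212 and 194 CPM at day 0, 49.1 and 54.4 CPM at day 4 and 88.9 and 98.1 CPM at day 8. At day 12, Noc4l had 105 and 105 CPM in Cd11b-high cells and 123 and 121 CPM in total cells. After withdrawal, Noc4l had 262 and 259.9 CPM at 4 days, 208 and 220.2 CPM at 8 days and 218 and 211 CPM at 12 days. It was the only member with its highest mean at 4 days off, where its log2 fold was 1.09 (SE 0.10, edgeR adjusted p = 1.1e-06) against day 12 and 0.36 (SE 0.10, edgeR adjusted p = 0.0084) against day 0, a call lost without day 0 replicate B. Bysl had 68.6 and 57.4 CPM at 12 days off against 30.7 and 29.1 CPM at day 0 (log2 fold 1.07, with SE 0.16, edgeR adjusted p = 0.00012), the largest rise of the 48 in that comparison. Ltv1 stayed between 82.6 and 109 CPM in all 16 libraries, the smallest ratio of highest to lowest library among the members.

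All 13 large subunit factors were lower at day 4 than at day 0 (31.0% of all genes). At day 12, 8 were lower and 1 higher than at day 0 (33.4% and 30.0% of all genes). At 12 days off, all 13 were higher than at day 12 and 7 higher than at day 0 (32.9% and 21.6% of all genes). Pes1, Bop1 and Wdr12 form the PeBoW complex, which is needed to process the large subunit RNAs, and their falls at day 4 differed in size. Wdr12 (Entrez 57750, chromosome 1, 60071361 to 60098500) had the deepest fall of the 3 at day 4. Wdr12 had 149 and 155 CPM at day 0, 43.3 and 42.3 CPM at day 4 and 59.1 and 62.0 CPM at day 8. At day 12, Wdr12 had 56.3 and 54.4 CPM in Cd11b-high cells and 62.7 and 59.8 CPM in total cells. After withdrawal, Wdr12 had 85.1 and 88.6 CPM at 4 days, 134 and 129.9 CPM at 8 days and 176 and 144 CPM at 12 days. All libraries on doxycycline lay far below day 0, and those of 12 days off lay on both sides of it. For Wdr12 the log2 fold against day 0 was -1.83 (SE 0.11, edgeR adjusted p = 2.7e-09) at day 4 and -1.31 (SE 0.10, edgeR adjusted p = 7.1e-08) at day 12. Wdr12 at 12 days off had a log2 fold of 1.39 (SE 0.10, edgeR adjusted p = 3.5e-08) against day 12 and of 0.07 (SE 0.10, edgeR adjusted p = 0.59) against day 0. Without 12 days off replicate B, the last value was 0.29 (edgeR adjusted p = 0.0083). Bop1 (Entrez 12181, chromosome 15, 76452988 to 76477249) had the shallowest. Bop1 had 120.2 and 113 CPM at day 0, 93.2 and 98.0 CPM at day 4 and 105 and 104 CPM at day 8. At day 12, Bop1 had 108 and 110.4 CPM in Cd11b-high cells and 117 and 109 CPM in total cells. After withdrawal, Bop1 had 101 and 121 CPM at 4 days, 142 and 155 CPM at 8 days and 176 and 142 CPM at 12 days. The day 4 libraries lay below day 0, and those of 8 and 12 days off above it. For Bop1 the log2 fold against day 0 was -0.29 (SE 0.12, edgeR adjusted p = 0.045) at day 4 and -0.05 (SE 0.12, edgeR adjusted p = 0.72) at day 12. Bop1 at 12 days off had a log2 fold of 0.49 (SE 0.12, edgeR adjusted p = 0.0017) against day 12 and of 0.45 (SE 0.12, edgeR adjusted p = 0.0065) against day 0. Its day 4 call was lost when any of the 4 libraries was left out, with edgeR adjusted p from 0.073 to 0.31. In fits of the 4 libraries alone, its calls at 12 days off were lost against day 12 (log2 fold 0.51, edgeR adjusted p = 0.06) and against day 0 (log2 fold 0.45, edgeR adjusted p = 0.15). Pes1 had log2 folds of -0.58 at day 4 (edgeR adjusted p = 0.00059) and 0.09 at day 12 (edgeR adjusted p = 0.53) against day 0.

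Noc2l (Entrez 57741, chromosome 4, 156234655 to 156247616), a partner of Noc3l in moving the early large subunit particle out of the nucleolus, was low on doxycycline and high after it. Noc2l had 282 and 263 CPM at day 0, 96.6 and 98.9 CPM at day 4 and 136 and 145 CPM at day 8. At day 12, Noc2l had 147 and 144 CPM in Cd11b-high cells and 149 and 155 CPM in total cells. After withdrawal, Noc2l had 215 and 207 CPM at 4 days, 391 and 435 CPM at 8 days and 463 and 439.9 CPM at 12 days. Groups on doxycycline did not overlap with day 0, nor did the groups of 8 and 12 days off on the other side. For Noc2l the log2 fold against day 0 was -1.48 (SE 0.10, edgeR adjusted p = 1.1e-08) at day 4 and -0.84 (SE 0.10, edgeR adjusted p = 2.6e-06) at day 12. Noc2l at 12 days off had a log2 fold of 1.57 (SE 0.10, edgeR adjusted p = 5.1e-09) against day 12 and of 0.73 (SE 0.10, edgeR adjusted p = 2.9e-05) against day 0. Ebna1bp2 (Entrez 69072, chromosome 4, 118620799 to 118627776), which joins the same early particle, lay just below day 0 at day 12. Ebna1bp2 had 146 and 135 CPM at day 0, 79.6 and 81.5 CPM at day 4 and 108 and 113 CPM at day 8. At day 12, Ebna1bp2 had 122 and 109 CPM in Cd11b-high cells and 125 and 127 CPM in total cells. After withdrawal, Ebna1bp2 had 156 and 151 CPM at 4 days, 235 and 242 CPM at 8 days and 337 and 242 CPM at 12 days. It ended above day 0 in both libraries, by far more in replicate A. For Ebna1bp2 the log2 fold against day 0 was -0.80 (SE 0.13, edgeR adjusted p = 7.9e-05) at day 4 and -0.16 (SE 0.13, edgeR adjusted p = 0.28) at day 12. Ebna1bp2 at 12 days off had a log2 fold of 1.20 (SE 0.13, edgeR adjusted p = 1.3e-06) against day 12 and of 1.04 (SE 0.13, edgeR adjusted p = 1.7e-05) against day 0. Of the others, Rrs1, which brings in the 5S particle, Nop2 and Ftsj3, which are RNA methyltransferases, and Noc3l had day 4 log2 folds from -1.87 to -1.17 and day 12 log2 folds from -0.89 to -0.42, and none of these 4 was called at 12 days off against day 0. Nip7 and Nop16 did not differ in call between day 12 and day 4, with log2 folds against day 0 at day 12 (-1.15 and -0.78) and at day 4 (-1.16 and -1.06). The helicase Ddx18 and the GTPase Gtpbp4 had log2 folds of -0.61 and -0.54 at day 4.

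**Figure D3:**
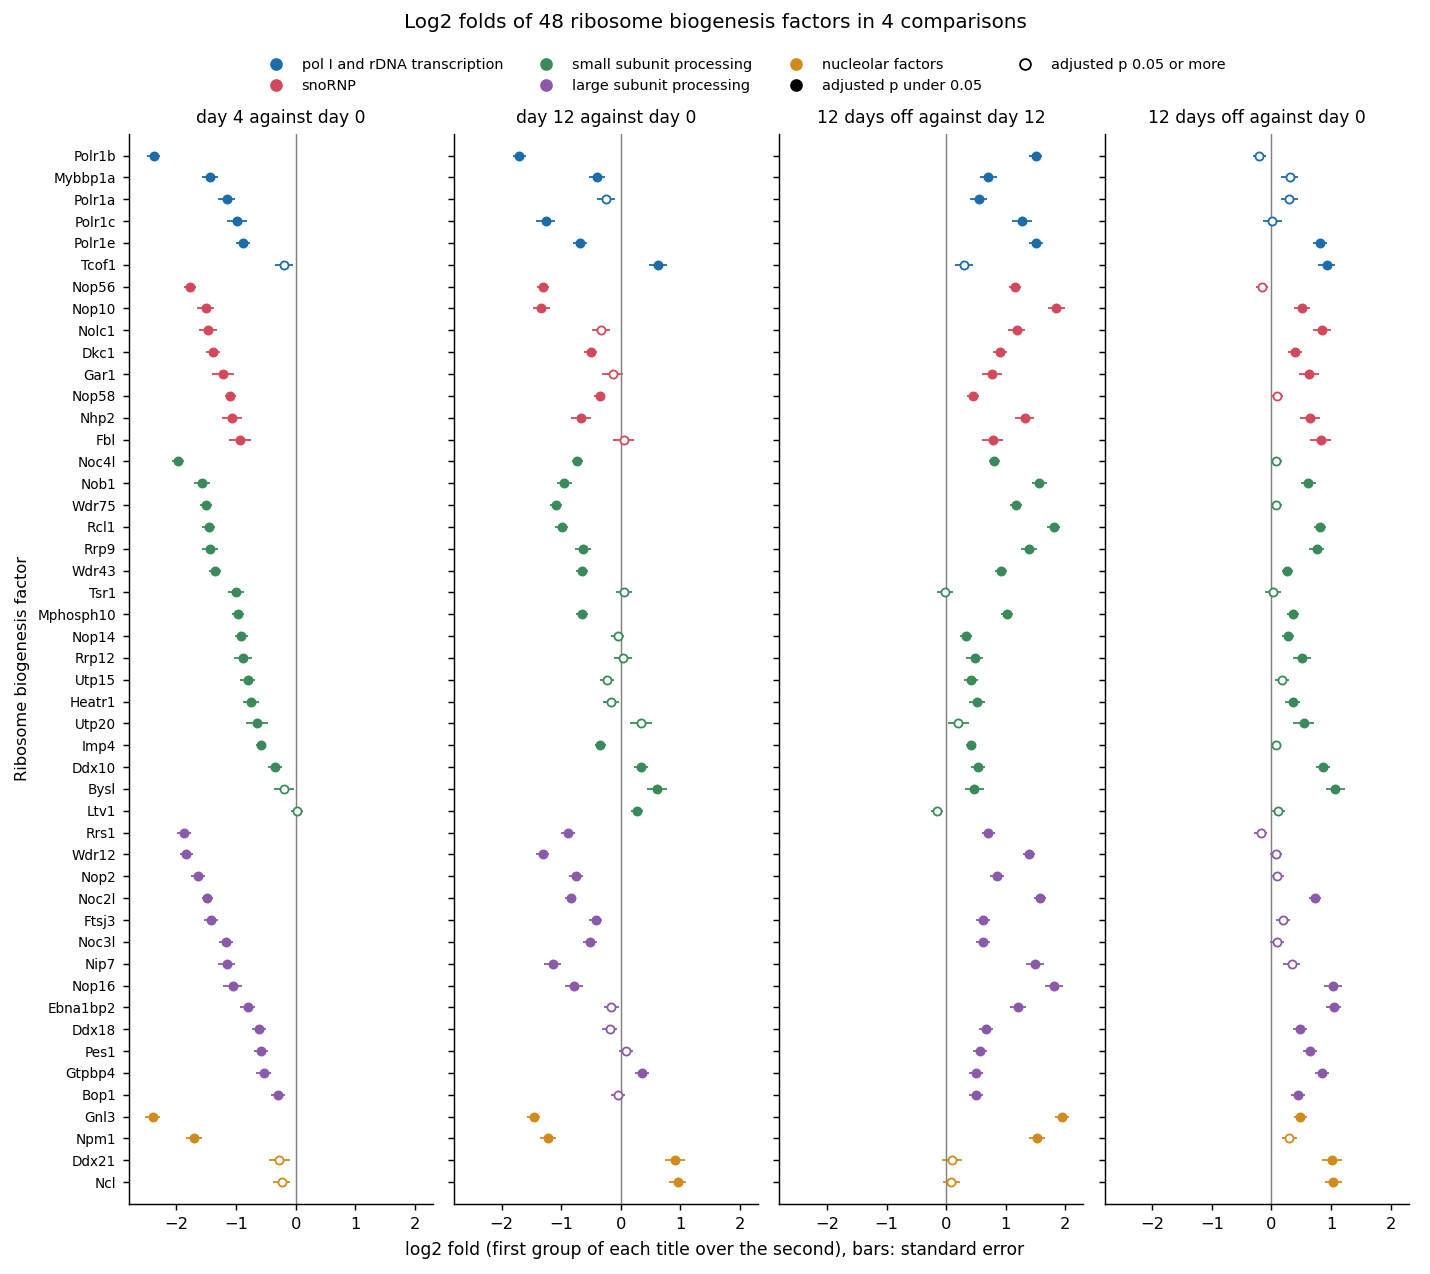
Log2 fold with its standard error for each of the 48 factors in 4 comparisons, coloured by role, filled where the edgeR adjusted p was under 0.05. At day 4 against day 0 all filled points (43) lie left of 0, and at 12 days off against day 12 all filled points (42) lie right of it.

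The 4 general nucleolar proteins split into opposite pairs at day 12. Gnl3 and Npm1 were lower and Ncl and Ddx21 higher than at day 0 (33.4% and 30.0% of all genes). Gnl3 (Entrez 30877, chromosome 14, 31012433 to 31019131) encodes nucleostemin, a GTPase that is high in stem and tumour cells. Gnl3 had 151 and 160.4 CPM at day 0, 31.2 and 27.8 CPM at day 4 and 49.4 and 60.2 CPM at day 8. At day 12, Gnl3 had 51.7 and 50.2 CPM in Cd11b-high cells and 52.9 and 59.9 CPM in total cells. After withdrawal, Gnl3 had 112 and 105 CPM at 4 days, 193 and 204 CPM at 8 days and 225 and 211 CPM at 12 days. Its level was several times lower at day 4 than at day 0, lay between these at day 12, and was above day 0 at 8 and 12 days off, with no overlap between these groups. For Gnl3 the log2 fold against day 0 was -2.40 (SE 0.12, edgeR adjusted p = 6.6e-10) at day 4 and -1.47 (SE 0.11, edgeR adjusted p = 6.1e-08) at day 12. Gnl3 at 12 days off had a log2 fold of 1.95 (SE 0.12, edgeR adjusted p = 3.4e-09) against day 12 and of 0.48 (SE 0.11, edgeR adjusted p = 0.0027) against day 0. The call against day 0 was lost in a fit of the 4 libraries alone (log2 fold 0.49, edgeR adjusted p = 0.1). Npm1 (Entrez 18148, chromosome 11, 33152498 to 33164142) encodes a nucleolar chaperone that is often mutated in human acute myeloid leukaemia. Npm1 had 486 and 636 CPM at day 0, 177 and 169 CPM at day 4 and 205 and 229 CPM at day 8. At day 12, Npm1 had 233 and 214 CPM in Cd11b-high cells and 237 and 245 CPM in total cells. After withdrawal, Npm1 had 406 and 354 CPM at 4 days, 619.9 and 568 CPM at 8 days and 737 and 644 CPM at 12 days. The day 0 libraries were 0.388 apart on the log2 scale, the widest gap of any member there, and all libraries on doxycycline lay below both. For Npm1 the log2 fold against day 0 was -1.70 (SE 0.13, edgeR adjusted p = 7.3e-08) at day 4 and -1.22 (SE 0.13, edgeR adjusted p = 1.6e-06) at day 12. Npm1 at 12 days off had a log2 fold of 1.52 (SE 0.13, edgeR adjusted p = 1.7e-07) against day 12 and of 0.30 (SE 0.13, edgeR adjusted p = 0.075) against day 0. The last of these was called without day 0 replicate B (log2 fold 0.51, edgeR adjusted p = 0.013) and without 12 days off replicate B (log2 fold 0.47, edgeR adjusted p = 0.0071).

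Ncl (Entrez 17975, chromosome 1, 86344719 to 86359455) encodes nucleolin, an abundant binder of ribosomal RNA and its genes. Ncl had 572 and 592 CPM at day 0, 425 and 567 CPM at day 4 and 683 and 835 CPM at day 8. At day 12, Ncl had 1147 and 1020.5 CPM in Cd11b-high cells and 1126 and 1122 CPM in total cells. After withdrawal, Ncl had 769.5 and 913 CPM at 4 days, 1104 and 1208 CPM at 8 days and 1241 and 1149 CPM at 12 days. Its day 8 and day 12 libraries lay above day 0, those of 4 days off between day 0 and day 12, and those of 12 days off above day 12. For Ncl the log2 fold against day 0 was -0.23 (SE 0.14, edgeR adjusted p = 0.17) at day 4 and 0.95 (SE 0.14, edgeR adjusted p = 3.9e-05) at day 12. Ncl at 12 days off had a log2 fold of 0.09 (SE 0.14, edgeR adjusted p = 0.6) against day 12 and of 1.04 (SE 0.14, edgeR adjusted p = 4.6e-05) against day 0. At 4 days off against day 12 its log2 fold was -0.42 (SE 0.14, edgeR adjusted p = 0.031), a call lost without either day 12 library, without 4 days off replicate A, with library size alone and with the length trend removed. At day 4 its log2 fold was -0.41 (edgeR adjusted p = 0.04) without day 4 replicate B and 0.02 (edgeR adjusted p = 0.9) without replicate A. Ddx21 (Entrez 56200, chromosome 10, 62580247 to 62602298), an RNA helicase of the nucleolus that also acts at ribosomal protein genes in human cells, had a like course. Ddx21 had 169 and 174 CPM at day 0, 124 and 161 CPM at day 4 and 211 and 273 CPM at day 8. At day 12, Ddx21 had 336 and 314 CPM in Cd11b-high cells and 325 and 319.6 CPM in total cells. After withdrawal, Ddx21 had 199.9 and 284 CPM at 4 days, 333 and 373 CPM at 8 days and 316 and 376 CPM at 12 days. The 4 days off libraries differed from each other more than those of day 12 and lay between day 0 and day 12. For Ddx21 the log2 fold against day 0 was -0.27 (SE 0.17, edgeR adjusted p = 0.18) at day 4 and 0.91 (SE 0.17, edgeR adjusted p = 0.00026) at day 12. Ddx21 at 12 days off had a log2 fold of 0.10 (SE 0.17, edgeR adjusted p = 0.61) against day 12 and of 1.01 (SE 0.17, edgeR adjusted p = 0.00025) against day 0. With the length trend removed, Ncl, Ddx21 and Tcof1 were called lower at day 4 than at day 0 and higher at 12 days off than at day 12, with log2 folds of -0.55, -0.46 and -0.37 at day 4 and of 0.70, 0.41 and 0.60 at 12 days off.

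**Figure D4:**
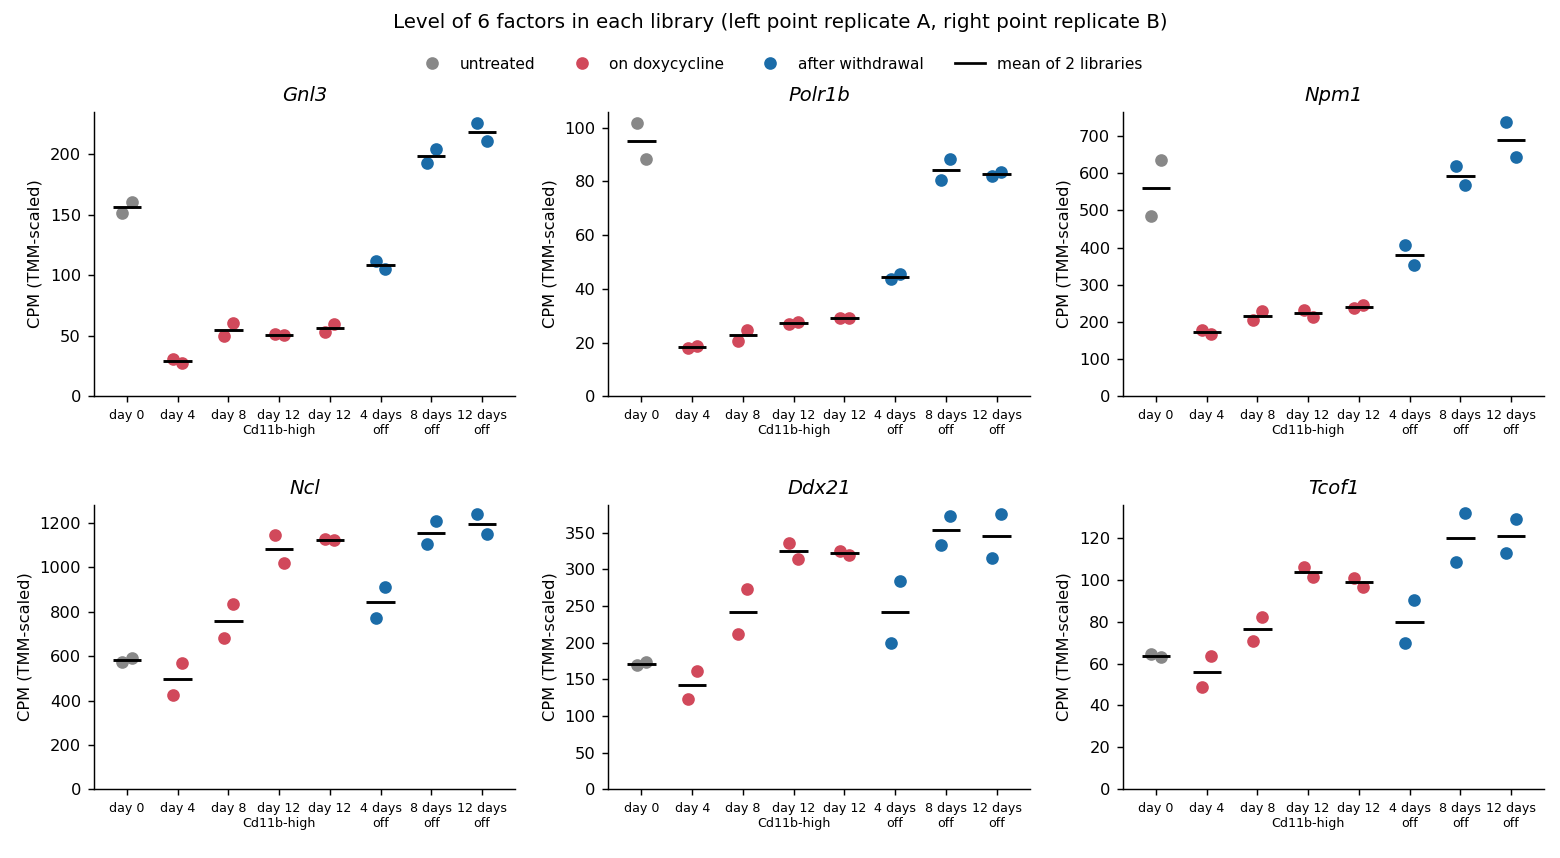
CPM of 6 factors in every library, each point 1 library and each short line the mean of 2, on axes that start at 0. Gnl3, Polr1b and Npm1 are lowest at day 4 and remain below day 0 at day 12, and Ncl, Ddx21 and Tcof1 are above day 0 at day 12.

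Sorting for Cd11b at day 12 gave no call in the pathway. The Cd11b-high and total libraries at day 12 gave 0 members higher and 0 lower (0.0% of all genes higher and 0.0146% lower, or 0 and 2 genes by edgeR, with 309 genes at an unadjusted p under 0.05). The members' log2 folds ran from -0.22 to 0.16 with a median of -0.06. The largest difference was that of Noc4l, at 105 and 105 CPM in Cd11b-high cells against 123 and 121 CPM in total cells, which was the 1 member called lower in a fit of these 4 libraries alone, where 162 of all genes were called higher and 156 lower. DESeq2 and limma-voom called 0 members. Itgam, which encodes Cd11b, had 912 ± 40.2 CPM in Cd11b-high cells and 694 ± 35.3 CPM in total cells (log2 fold 0.39, with SE 0.16, edgeR adjusted p = 1). A count of 0 does not show that the levels are equal.

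After withdrawal most members were higher by 12 days off than at day 12. At 4 days off against day 12, 16 of 48 were higher and 2 (Ncl and Gtpbp4) lower (18.0% and 18.8% of all genes), with a median log2 fold of 0.22. This step depends on the setting: library size alone gave 26 higher and 0 lower (all genes 3480 higher and 1906 lower, against 2459 and 2570 under TMM), and leaving out a library gave 9 to 12 higher and 0 to 5 lower, with 9 higher without day 12 replicate A and 10 without 4 days off replicate B. The lower count was 5 without 4 days off replicate B and 0 without any other of the 4. By 12 days off, 42 were higher than at day 12 and 0 lower (32.9% of all genes higher, 32.4% lower), with a median of 0.77. The largest rises were those of Gnl3 (1.95), Nop10 (1.85), Nop16 (1.81) and Rcl1 (1.80). The 6 not called were Ddx21, Ltv1, Ncl, Tcof1, Tsr1 and Utp20, and their log2 folds at day 12 against day 0 ran from 0.05 (Tsr1) to 0.95 (Ncl). All 27 members that were lower at day 12 than at day 0 were higher at 12 days off than at day 12. Both comparisons use the same day 12 libraries, so a high or low value there bears on both calls. The overlap is therefore not independent evidence of a reversal, and the matching share over all genes is not given here.

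Set against day 0, most members were still called lower or not called at 4 days off, and 24 and then 29 of 48 were called higher at 8 and 12 days off. At 4 days off against day 0, 3 members were higher and 18 lower (18.8% and 19.1% of all genes; median log2 fold -0.25), and the count of higher members was 1 without either day 0 library or without 4 days off replicate B. At 8 days off, 24 were higher and 0 lower (16.2% and 16.9% of all genes; median 0.33), a count that fell to 12 to 15 when any of the 4 libraries was left out. At 12 days off, 29 were higher and 0 lower (21.6% and 22.0% of all genes; median 0.42), with 22 to 34 when a library was left out and 15 in a fit of the 4 libraries alone, which lost 14 of the calls. The median member stood at 84.1% of its day 0 level at 4 days off, 125% at 8 days and 134% at 12 days. Of the 24 and 29, 23 were shared. Of the 27 members lower at day 12, 12 ended higher than at day 0, and of the other 21, 17 did. The largest rises over day 0 were those of Bysl (1.07), Ebna1bp2 (1.04), Ncl (1.04), Nop16 (1.03) and Ddx21 (1.01), and the lowest values were those of Polr1b (-0.20), Rrs1 (-0.18) and Nop56 (-0.16), none called. These comparisons share the day 0 libraries.

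Most other genes of the pathway were lower at day 4 too. Beside the counts here and below, 31.0% of all genes were lower and 28.2% higher at day 4 than at day 0. At day 12 against day 0, 33.4% of all genes were lower and 30.0% higher. At 12 days off against day 12, 32.9% were higher and 32.4% lower. Of 11 other RNA polymerase I factors, 7 were lower at day 4 and 6 at day 12 than at day 0, with 0 and 2 higher, and 5 were higher and 1 lower at 12 days off than at day 12. Taf1d, part of the promoter selectivity factor, had 50.5 and 49.8 CPM at day 12 against 152 and 172 CPM at day 0 (log2 fold -1.69, with SE 0.13, edgeR adjusted p = 6e-08). Of 10 other snoRNP and assembly factors, all 10 were lower at day 4 and 7 at day 12, and 8 were higher at 12 days off than at day 12, among them Naf1, an H/ACA assembly factor (log2 fold 1.87, with SE 0.14, edgeR adjusted p = 4e-08). Of 41 other small subunit factors, 33 were lower and 0 higher at day 4, 18 lower and 2 higher at day 12, and 34 higher and 1 lower at 12 days off than at day 12. Nat10, which acetylates ribosomal RNA, had 53.2 and 54.4 CPM at day 12 against 99.5 and 92.1 CPM at day 0 (log2 fold -0.83, with SE 0.10, edgeR adjusted p = 4e-06).

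Of 43 other large subunit factors, 32 were lower and 1 higher at day 4, 22 lower and 5 higher at day 12, and 33 higher and 2 lower at 12 days off than at day 12. Ppan, a large subunit assembly factor, had 59.3 and 63.4 CPM at day 12 against 268 and 209 CPM at day 0 (log2 fold -1.96, with SE 0.16, edgeR adjusted p = 8.7e-08), a deeper fall than that of any member. Of 23 exosome and RNase MRP genes, 17 were lower and 1 higher at day 4, 14 lower and 2 higher at day 12, and 18 higher and 2 lower at 12 days off than at day 12. Exosc10, a nuclear exosome nuclease, went the other way, with 175 and 170.1 CPM at day 12 against 87.0 and 70.7 CPM at day 0 (log2 fold 1.13, with SE 0.12, edgeR adjusted p = 1.3e-06). Against day 0, the numbers higher and lower at 12 days off were 4 and 3 of the other RNA polymerase I factors, 6 and 1 of the other snoRNP factors, 20 and 2 of the other small subunit factors, 20 and 1 of the other large subunit factors and 8 and 1 of the exosome and RNase MRP genes. Over all genes, 21.6% were higher and 22.0% lower in that comparison, and the lists were not tested against these shares.

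The 83 cytosolic ribosomal protein genes, whose products the factors assemble, also fell by day 4, and few were higher at day 12 than at day 4. Of the 83, 81 were lower and 0 higher at day 4 than at day 0 (median log2 fold -1.33), and 81 were lower and 0 higher at day 12 (median -1.22). Between day 4 and day 12, 5 of 83 were higher and 0 lower at day 12 (median 0.13), beside 39 of 48 members and 14.7% of all genes higher. The difference between these lists was not tested. At 12 days off, 82 were higher than at day 12 and 29 higher than at day 0 (32.9% and 21.6% of all genes). Summed, they took 27893 to 28292 CPM at day 0, 10515 to 12295 CPM at day 4, 12802 to 13280.0 CPM at day 12 and 28628 to 47808 CPM at 12 days off, where replicate A was far above B. Rps12 had 13.4 and 13.2 CPM at day 12 against 55.3 and 52.3 CPM at day 0 (log2 fold -2.02, with SE 0.20, edgeR adjusted p = 8.2e-07), and Rpl22 had 1149.9 and 793 CPM at 12 days off against 251 and 256 CPM at day 12 (log2 fold 1.94, with SE 0.16, edgeR adjusted p = 8.9e-08). These are short genes, and with the length trend removed their medians were -0.85 at day 4 and -0.69 at day 12 against day 0, and 0.89 at 12 days off against day 12.

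Myc had 334 and 343 CPM at day 0, 93.5 ± 2.11 CPM (SD, n = 2) at day 4, 137 and 139.7 CPM at day 8, and at day 12 181 and 173 CPM in Cd11b-high cells and 186 and 179.9 CPM in total cells. After withdrawal, Myc had 196 and 209 CPM at 4 days, 346 and 388 CPM at 8 days and 459 and 451 CPM at 12 days. It was lowest at day 4, higher at day 12 than at day 4, and above day 0 at 12 days off in both libraries. For Myc the log2 fold against day 0 was -1.86 (SE 0.10, edgeR adjusted p = 1e-09) at day 4 and -0.89 (SE 0.09, edgeR adjusted p = 1.3e-06) at day 12. Myc at 12 days off had a log2 fold of 1.31 (SE 0.09, edgeR adjusted p = 2.2e-08) against day 12 and of 0.43 (SE 0.09, edgeR adjusted p = 0.0019) against day 0. Of the 8 Myc network genes in the files, which include Myc antagonists, 4 were higher and 1 lower at day 4, 5 higher and 2 lower at day 12 against day 0, 1 higher and 4 lower at 12 days off against day 12, and 2 higher and 1 lower at 12 days off against day 0. The shares of all genes higher and lower were 28.2% and 31.0%, 30.0% and 33.4%, 32.9% and 32.4%, and 21.6% and 22.0%, in the same order. Mxd1, an antagonist of Myc at Max that was chosen after its values were seen, had a log2 fold of 2.17 (SE 0.11, edgeR adjusted p = 1.1e-09) at day 4 and 1.86 (SE 0.11, edgeR adjusted p = 6.1e-09) at day 12 against day 0.

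Marker lists moved over the same days. The 10 proliferation genes summed to 3061 to 3082 CPM at day 0, 3213 to 3808 CPM at day 4, 4962 to 4984 CPM at day 12 and 3294 to 3328 CPM at 12 days off, so day 4 lay above day 0. Of the 10, 2 were higher and 1 lower at day 4, and 7 higher and 0 lower at day 12, than at day 0. The shares of all genes were 28.2% and 31.0% at day 4, and 30.0% and 33.4% at day 12. The 8 neutrophil markers in the files, of 9 listed, summed to 35.7 to 45.2 CPM at day 0, 2285 to 2909 CPM at day 4, 751 to 766 CPM at day 12 and 37.3 to 42.4 CPM at 12 days off, with Ngp, Ltf or Camp at 0 in each library of day 0 and of 12 days off. The 8 eosinophil markers summed to 2079 to 5180.0 CPM at day 0, 202 to 241 CPM at day 4, 7998 to 8946 CPM at day 12 and 4213 to 4299.7 CPM at 12 days off. Ear2 was at 0 in both libraries of day 4 and both of 12 days off. The 5 basophil and mast cell markers in the files, of 7 listed, summed to 2247 to 2728 CPM at day 0, 599 to 698 CPM at day 4, 2048 to 2061 CPM at day 12 and 2168 to 2665 CPM at 12 days off, and the 3 erythroid markers, of 6 listed, to 40.4 to 78.7 CPM at day 0, 8.10 to 9.20 CPM at day 4, 45.7 to 50.5 CPM at day 12 and 56.7 to 71.3 CPM at 12 days off. Like the members, the eosinophil, basophil and mast cell and erythroid sums were lowest at day 4, as was the 1 T and NK cell marker. A sum follows its most abundant genes. At day 12, where the basophil and mast cell sum was below day 0, 3 of its 5 markers were called higher than at day 0 and 1 lower. Of the 8 eosinophil markers, 2 were called higher and 4 lower at 12 days off than at day 0 (21.6% and 22.0% of all genes). The 4 macrophage markers, of 6 listed, summed to 11.1 to 11.6 CPM at day 0, 47.1 to 56.5 CPM at day 4, 69.3 to 69.5 CPM at day 12 and 6.70 to 7.17 CPM at 12 days off. The sum of the 48 members was 6185 to 6266 CPM at day 0, 2817 to 3107 CPM at day 4, 5134 to 5179 CPM at day 12 and 8324 to 9045 CPM at 12 days off. The part of cell type makeup in the members' changes was not tested.

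The folds varied with gene length. Over the 48 members, the Spearman correlation of the log2 fold with length was 0.326 at day 4 and 0.446 at day 12 against day 0, and -0.493 at 12 days off against day 12, given as a description over genes that share these libraries (0.252, 0.276 and -0.352 over all genes). Libraries of 1 group also differed along length. For replicate A minus B, the members' correlation was -0.628 at day 4 and -0.489 at 4 days off. It was -0.642 at 8 days off and -0.645 at 12 days off. In the other groups it ran from -0.29 (day 8) to 0.235 (day 12 total cells). By deposited length, long members such as Ncl (8257 bases) and Utp20 had the higher folds at day 12. Short ones such as Nop10 and Polr1c had the lower. Among the exceptions were the short Fbl (1159 bases) and Gar1 (1271 bases), at 103.5% and 91.05% of day 0 at day 12. The longer Polr1b (3998 bases) was at 30.64%. Whether the deposited length is that of the RNA made in these cells was not tested. After a trend with length was removed from each library, a setting chosen after seeing the data, 46 members were lower and 0 higher at day 4, 31 lower and 8 higher at day 12, 45 higher and 1 lower at 12 days off against day 12, and 33 higher and 0 lower against day 0. The counts thus kept their direction, and the part of length in the size of each fold was not tested.

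**Figure D5:**
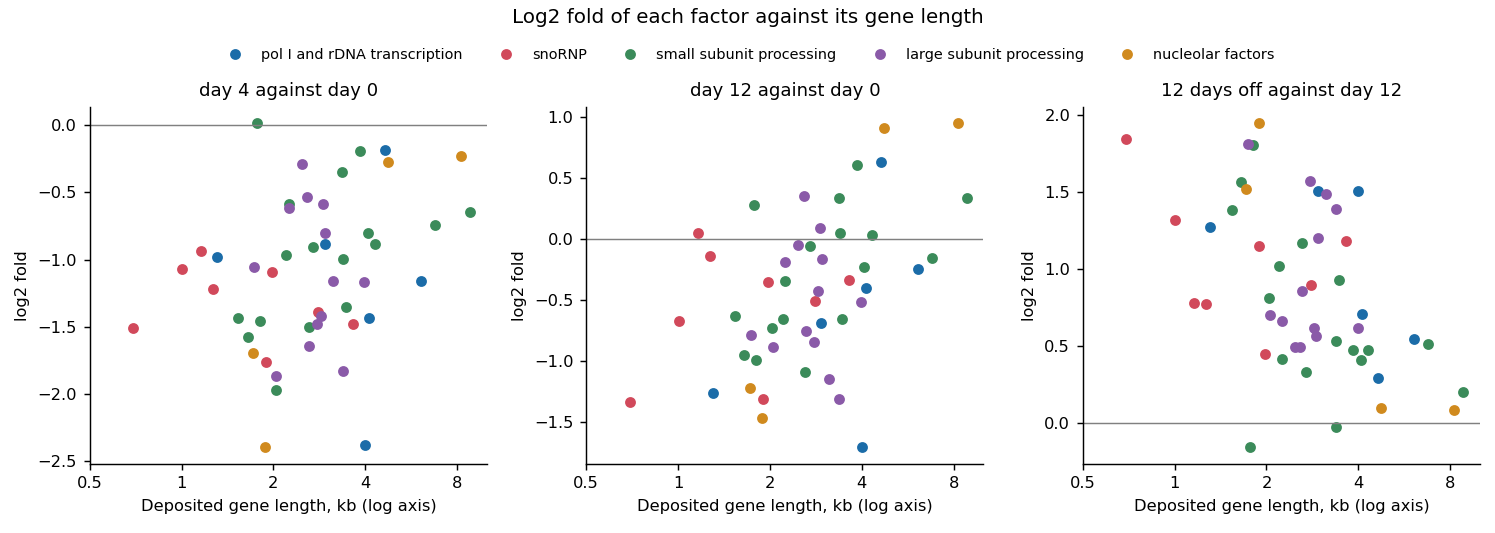
Log2 fold of each of the 48 factors against the deposited gene length in kb on a log axis, coloured by role, for 3 comparisons. Short genes lie lower at day 12 against day 0 and higher at 12 days off against day 12 (Spearman 0.446 and -0.493).

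Per kb of deposited gene length, the members spanned a wide range at each time. At day 0, Npm1 was highest at 327 CPM per kb, followed by Nhp2 at 161 and Nop58 at 157 CPM per kb, and Utp20 was lowest at 5.73 CPM per kb, with a median of 39.4. At day 12, Npm1 had 140.3 CPM per kb and Ncl 136 CPM per kb, a pair that differed more at day 0, where Ncl had 70.5 CPM per kb. Some counts may include reads of other genes: 7 members (Ddx18, Ddx21, Fbl, Nop56, Npm1, Pes1 and Wdr12) have a near-identical copy elsewhere with at least 95% identity over at least 200 bases, and 14 share exonic bases with a gene on the other strand, 9 of them with a partner in the files. The longest such overlaps were 616 bases of Tsr1 with Srr and 598 of Noc2l with Samd11. The sources used here do not state whether counting used strand, so the values of these members are uncertain to that extent.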

How the data were processed

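Per the labels' protocols, RNA of sorted AML246 cells was extracted with a column kit and sequenced on a NextSeq500. Per the file headers, each deposited file lists Entrez numbers with raw counts of reads and gene lengths in bases. The submitters' processing notes name featureCounts, edgeR, limma and mm10, without versions, and no source used here names an aligner. All genes listed exceed 0.5 CPM in at least 3 libraries.

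The counts were fitted for 13652 genes in R 4.3.3 with edgeR 4.0.16: TMM scaling, filterByExpr (0 genes removed), 8 group means over 16 libraries with 8 residual degrees of freedom, and robust quasi-likelihood F tests with Benjamini-Hochberg adjustment over all genes, called at 0.05. The common biological coefficient of variation was 10.9%. An SE was taken as the absolute log2 fold divided by the root of F. The 10 comparisons share day 0 or day 12 libraries. Alternatives were RLE factors, library size alone, other filters, DESeq2 1.42.0, limma-voom (limma 3.58.1), the 4 libraries of a comparison alone, a block for the replicate letter, and each library left out in turn. The length trend, and all settings for named members at day 4, were chosen after seeing the data. Symbols matched 13216 of 13652 Entrez numbers. Promoters and gene positions come from RefSeq tables of GRCm38.p6. Exon overlaps and near-identical copies (blastn 2.17.0) come from the GENCODE vM21 annotation and transcripts of GRCm38.

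Members and lists were chosen with earlier results of these data known. Values in every library are given for the members with the 2 lowest adjusted p of their role class in day 12 against day 0, 12 days off against day 12 or 12 days off against day 0, and the member with the highest in the first. Noc4l was added after its values were seen.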

Additional observations from a re-analysis of the deposited data

How the results depend on the processing

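Of 390 recomputed counts and medians over the members, 342 stayed near the main value, by limits on the ratio of counts and the shift of medians. Of the rest, 21 counts were smaller, 10 counts were larger and 17 medians moved beyond the spread between replicates. These limits do not look at the sign. For day 12 against day 0, library size alone gave 4 higher, leaving out 1 library gave 4 to 6, and the median log2 fold was -0.361 with RLE factors and DESeq2, -0.549 with library size alone, -0.47 with the length trend removed and -0.368 with the 4 libraries alone. In Cd11b-high against total cells at day 12, the 4 libraries alone gave 1 lower. For 12 days off against day 12, the lower count was 1 with the length trend removed and 0 to 1 without 1 library, and the median was 0.877 with library size alone and 0.694 to 0.829 without 1 library. For 12 days off against day 0, the 4 libraries alone gave 15 higher, and without 1 library the lower count was 0 to 1 and the median 0.35 to 0.527. At day 4 against day 0 the median was -1.02 with the length trend removed and -1.07 to -0.981 without 1 library. At day 8 against day 0, the 4 libraries alone gave 4 higher, and leaving out 1 library gave 0 to 2. For day 12 against day 4 the median was 0.542 with library size alone and 0.605 to 0.735 without 1 library. At 4 days off against day 12, library size alone gave 26 higher, 0 lower and a median of 0.337, DESeq2 and the 4 libraries alone gave 4 lower each, and without 1 library 9 to 12 were higher and 0 to 5 lower. At 4 days off against day 0, leaving out 1 library gave 1 to 4 higher and a median of -0.323 to -0.13. At 8 days off against day 0, leaving out 1 library gave 12 to 15 higher and a median of 0.247 to 0.379, and the 4 libraries alone gave 1 lower. The causes were not tested.

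Library size alone moved the median of all genes by -0.135 for day 12 against day 0, -0.138 for day 12 against day 4, 0.117 for 4 days off against day 12 and 0.105 for 12 days off against day 12. Of 1365 recomputed log2 folds of the 21 named members, 23 lost and 27 gained a call, and 27 changed sign uncalled. In 1, a called recomputed value had the opposite sign to a main value that was not called. This was Polr1c at 12 days off against day 0, at -0.331 without 12 days off replicate A (0.368 without replicate B). The letters A and B were not taken to pair libraries, since the labels do not say that they do. The A minus B differences correlated over 0.1 in 11 of 28 pairs of groups, with a range of -0.146 to 0.448. With the replicate block, the members higher and lower were 7 and 28 at day 12 against day 0, 42 and 0 at 12 days off against day 12, 31 and 0 at 12 days off against day 0, 0 and 43 at day 4 and 2 and 35 at day 8 against day 0, 39 and 0 at day 12 against day 4, 18 and 3 at 4 days off against day 12, 3 and 21 at 4 days off and 26 and 0 at 8 days off against day 0, and 0 and 0 for Cd11b-high against total cells. With 2 libraries a group, small differences are not detectable.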
